A study of Mus musculus with 4 samples.

Results

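S3-rich spots are the Visium spots of mouse kidney sections in which transcripts of the straight part of the proximal tubule, the S3 segment, were most abundant. They were chosen from measured values, the UMIs (unique molecular identifiers, 1 per captured transcript) of Slc7a13, Slc22a13, Cyp7b1, Serpina1f and Aadat. In each spot these were divided by the UMIs outside the mitochondrial genome, multiplied by 10000, raised by 1, logged and summed to a score. The 10% of spots with the highest score were taken in each section. They numbered 265 of 2650 and 259 of 2590 spots in the sections of Uox_KO mice, against 253 of 2528 and 336 of 3362 spots in the sections of Control mice, or 1113 of 11130 spots in all. A Visium spot is a small region of tissue that can hold several cells of different types, so these are regions rich in S3 transcripts and not single cells.

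The study profiled kidneys of a mouse model of hyperuricemia. Uox_KO mice were male mice on the C57BL/6J background from which exons 2 to 4 of Uox, the gene of urate oxidase, had been removed, and Control mice were male wild-type mice. Each genotype had 2 mice with 1 fresh frozen section of 10 µm each. Age, litter and sequencing run are not given in the sources used here, and both genotypes came from a commercial supplier. Uox had 0 UMIs in the S3-rich spots of all 4 sections and in their other spots, so its transcript does not check the labels. With 0 UMIs at these depths a level could still be up to 0.345 and 0.398 CPM (counts scaled to a common library total) in the Uox_KO sums and up to 0.261 and 0.222 CPM in the Control sums, for counting error only.

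The S3 segment is the last stretch of the proximal tubule, running down the medullary rays into the outer stripe of the outer medulla. It reabsorbs what the earlier S1 and S2 segments leave behind, through high-affinity carriers for glucose, amino acids and peptides, and it secretes organic anions, among them drugs and urate. In mice its transcripts differ strongly between the sexes, and it is known as a part of the nephron that is readily injured.

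All results below rest on UMIs summed over the S3-rich spots of each section. These sums held 8696709 and 7530867 UMIs in the Uox_KO sections, against 11516273 and 13487501 UMIs in the Control sections. The median S3-rich spot had 33080 and 31101 UMIs in the Uox_KO sections, against 44940 and 40557 UMIs in the Control sections. Mitochondrially encoded transcripts made up 13.1% and 16.6% of the UMIs in the Uox_KO sums, against 11.5% and 12.3% in the Control sums. The 2 Uox_KO sums differed more from each other than the 2 Control sums did, with a chi-square per degree of freedom over genes of 13.5 in Uox_KO and 2.87 in Control. Sections shared 1861 to 2539 spot barcodes and 18 to 41 barcodes of S3-rich spots, which are fixed array positions, and no shared barcode had the same UMI count in both sections.

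The fixed share of 10% took spots with different scores in the sections. The lowest score inside and the highest outside were 5.02 and 5.01 in Uox_KO replicate 1 and both 2.84 in Uox_KO replicate 2, against 4.29 and 4.28 in Control replicate 1 and both 4.17 in Control replicate 2. The median score of S3-rich spots was 7.06 and 4.43 in the Uox_KO sections, against 4.68 and 4.50 in the Control sections. That of the other spots was 1.07 and 0.725 in the Uox_KO sections, against 2.92 and 2.68 in the Control sections. A score of at least 6 was reached by 189 and 71 spots in the Uox_KO sections, against 26 and 15 spots in the Control sections. S3-rich and other spots thus stood further apart in the Uox_KO sections than in the Control sections. All 5 marker genes were detected in 74.7% and 38.2% of the S3-rich spots of the Uox_KO sections, against 16.2% and 4.76% of those of the Control sections. Results that change with spots of a score of at least 6 alone, a threshold chosen after the scores were seen, are given beside their values.

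**Figure D1:**
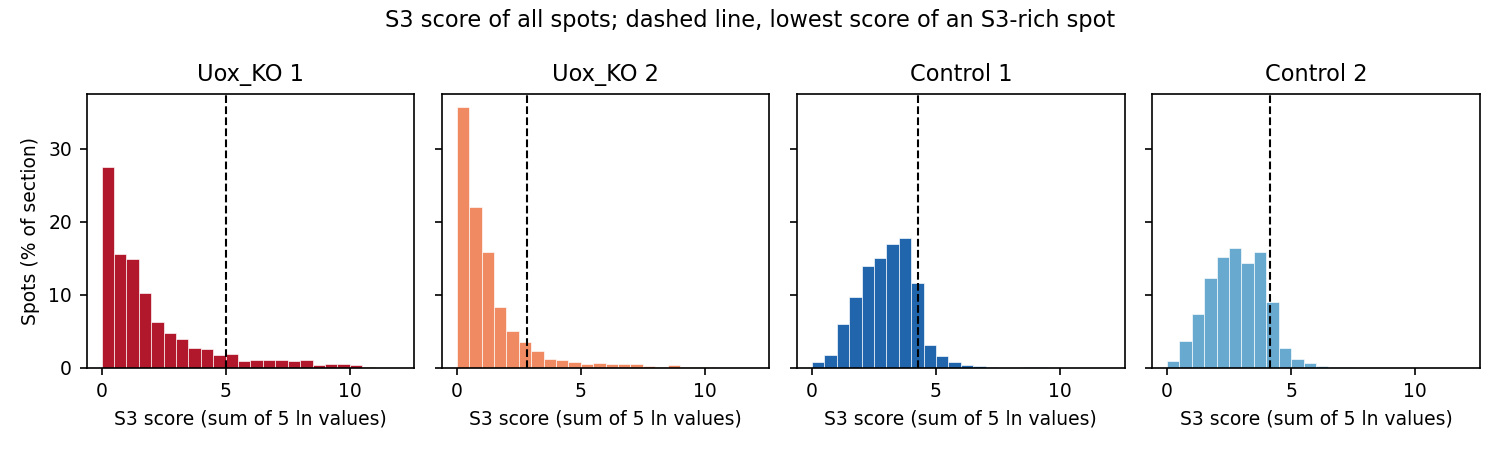
Distribution of the S3 score (x axis, sum of 5 natural logs, no unit) over all spots of each section, as a percentage of the section's spots (y axis), with Uox_KO sections left of Control sections. The dashed lines mark the lowest score of an S3-rich spot, 5.02 and 2.84 in the Uox_KO sections, against 4.29 and 4.17 in the Control sections; the Control scores form a single hump, and the median over all spots is 1.21 and 0.845 in the Uox_KO sections, against 3.09 and 2.83 in the Control sections.

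The marker genes themselves are given as a description, since they chose the spots. Slc7a13, a cystine and acidic amino acid carrier of the S3 brush border, stood at 938 and 819 CPM in the S3-rich spots of the Uox_KO sections, against 1516 and 1482 CPM in those of the Control sections. Outside the S3-rich spots Slc7a13 stood at 109 and 64.6 CPM in the Uox_KO sections, against 629 and 539.9 CPM in the Control sections. It was detected in 49.5% and 47.8% of those spots in the Uox_KO sections, against 99.0% and 98.3% in the Control sections. The S3-rich spots therefore held 62.3% and 65.8% of all Slc7a13 UMIs of the Uox_KO sections, against 25.3% and 28.2% of those of the Control sections. Aadat, an aminotransferase of the kynurenine pathway, showed the same order, with 199 and 119 CPM in the S3-rich spots of the Uox_KO sections, against 262 and 245 CPM in those of the Control sections. The other 3 markers were higher in the Uox_KO sums. Slc22a13, an organic anion carrier that exchanges urate, stood at 224 and 133 CPM in the Uox_KO sections, against 61.6 and 46.9 CPM in the Control sections. Cyp7b1, an oxysterol hydroxylase, stood at 128 and 58.7 CPM in the Uox_KO sections, against 37.8 and 21.2 CPM in the Control sections. Serpina1f, a member of the alpha-1-antitrypsin family, stood at 705 and 216 CPM in the Uox_KO sections, against 10.3 and 2.97 CPM in the Control sections. For Serpina1f the share of S3-rich spots with a UMI was 99.6% and 76.8% in the Uox_KO sections, against 19.0% and 6.55% in the Control sections.

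The label was checked with 18 other genes known from S3. Their CPM in S3-rich spots exceeded that in the other spots of the same section in all 4 sections for 15 of the 18. The median ratio was 1.85 and 1.82 in the Uox_KO sections, against 1.51 and 1.48 in the Control sections. Of the 13 listed S1 and S2 genes, 11 were below the other spots in every section, with median ratios of 0.376 and 0.617 in the Uox_KO sections, against 0.402 and 0.429 in the Control sections. By summed level the S1 and S2 ratio was 0.474 and 0.918 in the Uox_KO sections, against 0.805 and 0.832 in the Control sections. The summed ratio of the 18 S3 genes, mostly set by Kap, was 1.90 and 2.21 in the Uox_KO sections, against 1.53 and 1.60 in the Control sections. A ratio of at least 2 in all 4 sections was seen for 3 genes, Agt and the organic anion carriers Slc22a7 and Slc22a19. The ratio of Slc22a7 was 9.66 and 23.3 in the Uox_KO sections, against 5.70 and 5.05 in the Control sections. The ratio of Slc22a19 was 9.01 and 12.5 in the Uox_KO sections, against 12.1 and 10.8 in the Control sections. Agt, which encodes angiotensinogen, had a ratio of 2.52 and 2.30 in the Uox_KO sections, against 3.16 and 3.002 in the Control sections. Glul, Slc7a12 and Slc2a1 were the exceptions, with a ratio below 1 in at least 1 section. Glul, which encodes glutamine synthetase, stood below the other spots in both Uox_KO sections, at 0.882 and 0.885, against 1.04 and 1.02 in the Control sections. The spots also held transcripts of the thick ascending limb: the summed level of its 9 listed genes was 1.28 and 1.62 times that of the other spots in the Uox_KO sections, against 1.88 and 1.66 times in the Control sections. Slc14a2, a urea carrier of the thin limb and inner medulla, was at 0 UMIs in the S3-rich spots of both Control sections. Its level was 15.8 and 7.72 CPM after scaling in the Uox_KO sections.

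**Figure D2:**
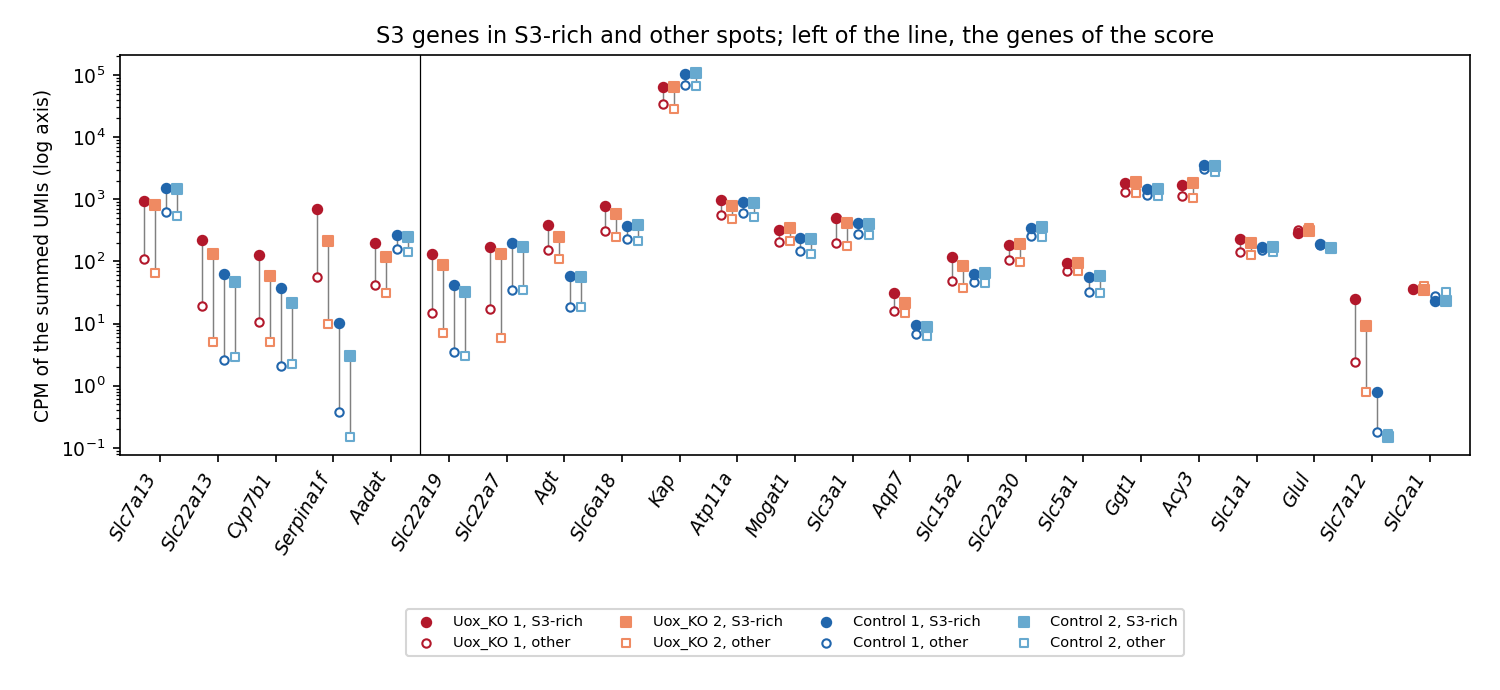
CPM of the summed UMIs (log axis) of the 5 score genes, left of the line, and of listed S3 genes, right of it, in S3-rich spots and in other spots of each section, with Uox_KO before Control. In the other spots Slc7a13 lies at 109 and 64.6 CPM in the Uox_KO sections, against 629 and 539.9 CPM in the Control sections.

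Within the S3-rich spots, levels varied with the score. The spots of each section were split by score into 4 bands of about equal size. From the highest to the lowest band Slc22a7 stood at 170.4, 225, 151 and 109.6 CPM in Uox_KO replicate 1 and at 229, 138, 73.7 and 63.5 CPM in Uox_KO replicate 2. In Control replicate 1 the same bands gave 343, 189, 135 and 116 CPM for Slc22a7, and in Control replicate 2 they gave 279, 167, 119 and 122 CPM. Slc5a2, the S1 glucose carrier, ran the other way, from 5.47 CPM in the highest to 12.8 CPM in the lowest band of Uox_KO replicate 1 and from 10.8 to 57.2 CPM in Uox_KO replicate 2. In the Control sections it lay between 70.1 and 118 CPM in all bands. Umod, the uromodulin gene of the thick ascending limb, was highest in the highest-scoring band of both Control sections, at 4686 and 4438 CPM, and had no such order in the Uox_KO sections, where the highest band gave 1232 and 1669 CPM. Havcr1 was lowest in the highest-scoring band of both Uox_KO sections, at 26.2 and 28.3 CPM, and reached 78.2 and 59.2 CPM in the middle bands.

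Of 7795 genes whose mean in S3-rich spots reached 10 CPM, 37 (0.475%) had at least 2 times the CPM of the other spots in all 4 sections, and 29 (0.372%) had at most 0.5 times. Since the same spots define the contrast, these ratios have no test. By the lowest of the 4 section ratios, Serpina1d led, with 11.8 and 21.9 in the Uox_KO sections, against 21.7 and 16.9 in the Control sections. Serpina1a followed Slc22a19, with ratios of 8.34 and 7.83 in the Uox_KO sections, against 12.8 and 10.8 in the Control sections. Serpina1a, Serpina1b and Serpina1d encode alpha-1-antitrypsin, a protease inhibitor best known from liver. Serpina1f, of the same family, is among the score genes that chose the spots, so the ratios of these copies are not independent of that choice. Mep1b, a subunit of the brush border protease meprin, had ratios of 11.1 and 13.5 in the Uox_KO sections, against 5.29 and 5.05 in the Control sections. Mettl7a2 had ratios of 19.3 and 26.2 in the Uox_KO sections, against 5.97 and 3.81 in the Control sections. Next came Pigr, the receptor that carries polymeric immunoglobulin across epithelia, Apoc3, an apolipoprotein, Cyp2a4, a steroid hydroxylase that differs between the sexes in mice, Ppic, a peptidyl-prolyl isomerase, and Crot, a peroxisomal carnitine acyltransferase. For these genes the lowest ratio of any section was 3.06, 2.75, 2.65, 2.61 and 2.28 in that order.

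The start regions of the 3 alpha-1-antitrypsin copies are shown because these genes moved together between the genotypes. The copies are close paralogs, so the assignment of reads among them is uncertain and was not tested. Each window covers 250 bases before to 50 bases after the annotated start (RefSeq, build GRCm38.p6, minus strand): chr12:103863570-103863869 for Serpina1a, chr12:103738140-103738439 for Serpina1b and chr12:103773584-103773883 for Serpina1d. No motif is marked in these windows.
Serpina1a: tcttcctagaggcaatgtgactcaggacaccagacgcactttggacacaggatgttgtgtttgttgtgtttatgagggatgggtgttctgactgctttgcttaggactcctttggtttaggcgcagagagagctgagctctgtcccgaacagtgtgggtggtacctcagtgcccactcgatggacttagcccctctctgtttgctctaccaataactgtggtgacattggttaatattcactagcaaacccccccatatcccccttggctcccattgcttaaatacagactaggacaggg
Serpina1b: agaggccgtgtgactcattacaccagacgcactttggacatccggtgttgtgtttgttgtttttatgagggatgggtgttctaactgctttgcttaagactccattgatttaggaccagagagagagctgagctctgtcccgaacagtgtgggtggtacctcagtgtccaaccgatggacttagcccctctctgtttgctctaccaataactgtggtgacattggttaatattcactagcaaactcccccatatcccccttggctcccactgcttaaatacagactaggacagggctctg
Serpina1d: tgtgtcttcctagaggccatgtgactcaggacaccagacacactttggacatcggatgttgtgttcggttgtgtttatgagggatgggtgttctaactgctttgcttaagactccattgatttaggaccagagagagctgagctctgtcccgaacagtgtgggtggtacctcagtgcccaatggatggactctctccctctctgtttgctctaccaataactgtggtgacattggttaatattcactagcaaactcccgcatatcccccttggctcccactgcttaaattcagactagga
Aligned with free end gaps, the windows of Serpina1a and Serpina1b were 92.9% identical, those of Serpina1a and Serpina1d 92.6%, and those of Serpina1b and Serpina1d 93.1%.

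Uox_KO was set against Control in the summed S3-rich spots with edgeR's quasi-likelihood test and Benjamini-Hochberg adjustment over all 13060 genes tested, with the 5 score genes left out. Levels in these comparisons are CPM scaled by trimmed mean of M-values (TMM). Fold changes are log2 of Uox_KO over Control, and each genotype had 2 sections. The ± value is a standard error taken from the test, the fold change divided by the square root of its F statistic. It is not a counting interval, and it can fall below the counting error where a genotype had few UMIs. The call was an adjusted p under 0.05. Higher in Uox_KO were 3217 genes (24.6%) and lower were 2855 genes (21.9%), together 46.5% of those tested, so a count of called genes in any list is read against that background. Both Uox_KO sections lay above both Control sections for 38.1% of all tested genes and below both for 37.3%. Over 2-fold higher were 1854 of the called genes and over 2-fold lower 696. The median of all genes was 0.0015 with TMM and 0.20 without it, where the split became 4517 higher and 1668 lower. With spots of a score of at least 6 alone, 1232 genes were higher and 1123 lower. Without Control replicate 1 the counts were 2068 higher and 1567 lower, and without Control replicate 2 they were 1884 and 1372. In these bulk sums, fewer cells of a type and less RNA per cell cannot be told apart. With a single score threshold for all sections 3606 genes were higher and 3294 lower, and with every sum thinned to the depth of the smallest, 2851 were higher and 2506 lower.

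To ask whether a genotype difference was the same in S3-rich and other spots, a term for it was tested over the 8 sums with the section as a block. It was more positive in S3-rich spots for 642 of 15498 genes (4.14%) and more negative for 254 (1.64%). This term reads the same contrast between spots that the score made, and that contrast was wider in the Uox_KO sections, as given above. Both counts depended on the section left out: they fell without either Control section and rose without either Uox_KO section. Without Control replicate 1 they were 179 and 79, and without Control replicate 2 they were 222 and 91. The more negative count was 426 without Uox_KO replicate 1 and 681 without Uox_KO replicate 2.

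The alpha-1-antitrypsin copies were among the genes with the largest difference. Serpina1d stood at 1364 and 768 CPM in Uox_KO sections, against 62.3 and 37.9 CPM in Control sections (log2 fold change 4.41 ± 0.32, adjusted p = 2.79e-05). Serpina1a stood at 525 and 157 CPM in Uox_KO sections, against 12.7 and 10.5 CPM in Control sections (log2 fold change 4.89 ± 0.53, adjusted p = 0.000208). Serpina1b stood at 172 and 58.8 CPM in Uox_KO sections, against 1.85 and 0.479 CPM in Control sections (log2 fold change 6.68 ± 0.67, adjusted p = 0.000131). For each of these copies both Uox_KO sections were above both Control sections, and Uox_KO replicate 1 was the highest. Serpina10, an inhibitor of coagulation factor proteases, had 828 UMIs in the S3-rich spots of the 2 Uox_KO sections and 0 in those of the Control sections, which is at least 365-fold higher against a floor of 3 counts over the group (adjusted p = 7.46e-06). Serpina1c, named after its values were seen, differed less, at 6.95 and 5.31 CPM in Uox_KO sections, against 2.49 and 2.16 CPM in Control sections (log2 fold change 1.41 ± 0.26, adjusted p = 0.00266), and was not called with scores of at least 6 alone (adjusted p = 0.76). Among spots with scores of at least 6 the log2 fold change was 2.56 for Serpina1d, 3.32 for Serpina1a and 4.97 for Serpina1b. In the other spots the log2 fold change was 4.81 for Serpina1d, 5.33 for Serpina1a and 5.28 for Serpina1b. The difference between spots did not pass the test for Serpina1d (adjusted p = 0.748) or Serpina1a (adjusted p = 0.0784), and passed it for Serpina1b, which was more positive in S3-rich spots by 1.41 (adjusted p = 0.0385). Serpina1f, of the same family, helped choose the spots and was detected far more often in the S3-rich spots of Uox_KO. The test of this term is therefore not independent of that choice for these copies, and Serpina1b was low in both Control sections.

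Of the 18 S3 genes outside the score, 10 were higher in Uox_KO, 4 were lower and 4 were not called. Their median log2 fold change was 0.35, against -0.03 in the other spots. With scores of at least 6 alone, 6 were higher and 4 lower. Without Control replicate 1 they were 6 and 2, and without Control replicate 2 they were 5 and 4. Agt stood at 358 and 236 CPM in Uox_KO sections, against 61.9 and 60.6 CPM in Control sections (log2 fold change 2.28 ± 0.18, adjusted p = 3.9e-05). Slc22a19 stood at 120.0 and 84.1 CPM in Uox_KO sections, against 45 and 34.5 CPM in Control sections (log2 fold change 1.37 ± 0.18, adjusted p = 0.00052), but with scores of at least 6 its log2 fold change was 0.01 (adjusted p = 0.969). Slc22a7 was lower, at 154 and 128 CPM in Uox_KO sections, against 212 and 187 CPM in Control sections (log2 fold change -0.50 ± 0.11, adjusted p = 0.00715), with a log2 fold change of -1.87 in the other spots, and its call was lost without Control replicate 1 (adjusted p = 0.099). These 3 genes mark S3 in every section and moved in different directions between the genotypes. Acy3, an aminoacylase, and Kap, the kidney androgen-regulated protein, were lower. Acy3 stood at 1576 and 1720.3 CPM in Uox_KO sections, against 3809.6 and 3642 CPM in Control sections (log2 fold change -1.18 ± 0.10, adjusted p = 6.08e-05). Kap stood at 59650.2 and 60931 CPM in Uox_KO sections, against 111561 and 114149 CPM in Control sections (log2 fold change -0.90 ± 0.14, adjusted p = 0.00119); its call was lost without Control replicate 1 (adjusted p = 0.093) or replicate 2 (adjusted p = 0.12). Slc7a12, a carrier of the same family as Slc7a13, stood at 22.4 and 8.73 CPM in Uox_KO sections, against 0.831 and 0.16 CPM in Control sections (log2 fold change 5.03 ± 0.65, adjusted p = 0.000487). Slc3a1, the heavy subunit of the cystine carrier, stood at 456 and 394 CPM in Uox_KO sections, against 434 and 425 CPM in Control sections and was not called (adjusted p = 0.919). Ggt1, which splits glutathione at the brush border, stood at 1656 and 1817 CPM in Uox_KO sections, against 1574 and 1555 CPM in Control sections and was not called (adjusted p = 0.23).

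Urate and organic ion carriers were mostly lower. Of 25 tested, 16 were lower and 4 higher. The median log2 fold change was -0.50 in S3-rich spots and -0.82 in the other spots. When only scores of at least 6 were kept, 15 were lower and 2 higher. Slc22a12, the urate carrier of the apical membrane, stood at 495 and 544 CPM in Uox_KO sections, against 922 and 966 CPM in Control sections (log2 fold change -0.86 ± 0.09, adjusted p = 0.000193). Slc22a6 and Slc22a8, the basolateral organic anion carriers of S1 and S2, named after their values were seen, were lower too. Slc22a6 stood at 368 and 763 CPM in Uox_KO sections, against 1305 and 1368 CPM in Control sections (log2 fold change -1.24 ± 0.27, adjusted p = 0.00669), a call lost without Control replicate 2 (adjusted p = 0.06). Slc22a8 stood at 30.2 and 96.8 CPM in Uox_KO sections, against 295 and 264 CPM in Control sections (log2 fold change -2.15 ± 0.41, adjusted p = 0.00324). In both genes Uox_KO replicate 1 was the lowest section. Slco1a1, an organic anion carrier that is higher in males, stood at 32.8 and 92.5 CPM in Uox_KO sections, against 669 and 689 CPM in Control sections (log2 fold change -3.45 ± 0.39, adjusted p = 0.000234). The apical phosphate and urate carriers Slc17a1 and Slc17a3, named after their values were seen, were lower as well. Slc17a1 stood at 470.5 and 494 CPM in Uox_KO sections, against 803 and 816 CPM in Control sections (log2 fold change -0.75 ± 0.09, adjusted p = 0.000264). Slc17a3 stood at 684 and 739.6 CPM in Uox_KO sections, against 988 and 929 CPM in Control sections (log2 fold change -0.43 ± 0.09, adjusted p = 0.0057). The call of Slc17a3 was lost with scores of at least 6, without Control replicate 1 or 2 and without TMM. Abcg2, a urate exporter chosen after its values were seen, stood at 303 and 341 CPM in Uox_KO sections, against 425 and 406 CPM in Control sections (log2 fold change -0.37 ± 0.09, adjusted p = 0.0119), a call lost in the same settings. Slc2a9, the basolateral urate carrier, was at 3.05 and 5.19 CPM in Uox_KO sections, against 5.72 and 5.35 CPM in Control sections and was not called (adjusted p = 0.212).

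The 4 higher members of that list were Slc22a19, Slco4c1, Abcc4 and Abcc2. Abcc4, an exporter of organic anions and urate, stood at 96.2 and 75 CPM in Uox_KO sections, against 12.4 and 13.3 CPM in Control sections (log2 fold change 2.74 ± 0.14, adjusted p = 5.62e-06), and both Uox_KO sections lay above both Control sections. Abcc4 had a log2 fold change of 0.92 in the other spots, and the difference between spots was 1.81 (adjusted p = 2.46e-07). Slco4c1, a basolateral organic anion carrier, stood at 47.1 and 27.5 CPM in Uox_KO sections, against 3.51 and 3.12 CPM in Control sections (log2 fold change 3.50 ± 0.28, adjusted p = 4.76e-05). Abcc2, an apical exporter chosen after its values were seen, stood at 211 and 213 CPM in Uox_KO sections, against 171 and 164 CPM in Control sections (log2 fold change 0.34 ± 0.08, adjusted p = 0.00847), and its call was lost with scores of at least 6 and without Control replicate 1 or 2. For 12 of the 25 carriers the genotype difference was more positive in S3-rich than in other spots, against 4.14% of all genes tested. It was more negative for 1, against 1.64% of all genes. The first of these counts was 3 without Control replicate 1 and 4 without Control replicate 2.

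Amino acid and peptide carriers moved both ways, with 9 of 22 higher and 7 lower. The median log2 fold change was 0.20 in S3-rich spots and -0.28 in the other spots. Without Control replicate 2, 5 were higher. Slc38a3, a glutamine carrier of the basolateral membrane, stood at 293 and 238 CPM in Uox_KO sections, against 49.5 and 51.9 CPM in Control sections (log2 fold change 2.39 ± 0.12, adjusted p = 4.76e-06). Slc38a2, another glutamine and neutral amino acid carrier, stood at 47.4 and 47.2 CPM in Uox_KO sections, against 20.2 and 21 CPM in Control sections (log2 fold change 1.20 ± 0.09, adjusted p = 3.01e-05). Slc6a18, the neutral amino acid carrier of the later proximal tubule, stood at 706 and 553 CPM in Uox_KO sections, against 397 and 409.8 CPM in Control sections (log2 fold change 0.64 ± 0.12, adjusted p = 0.00304), a call lost without Control replicate 1 or 2. Slc6a13, a carrier of gamma-aminobutyrate named after its values were seen, stood at 194 and 148 CPM in Uox_KO sections, against 109 and 106 CPM in Control sections (log2 fold change 0.67 ± 0.13, adjusted p = 0.00312), a call lost without Control replicate 2. In the other spots the log2 fold change was 0.07 for Slc6a18 and -0.13 for Slc6a13. The difference between spots was 0.58 (adjusted p = 0.000798) for Slc6a18 and 0.80 (adjusted p = 2.47e-05) for Slc6a13. Slc7a8, a basolateral neutral amino acid exchanger of the early tubule, stood at 9.69 and 12.4 CPM in Uox_KO sections, against 22.9 and 22 CPM in Control sections (log2 fold change -1.03 ± 0.14, adjusted p = 0.000583), a call lost with scores of at least 6. For 11 of the 22 the genotype difference was more positive in S3-rich than in other spots, against 4.14% of all genes tested. It was more negative for 2, against 1.64% of all genes. The first of these counts was 4 without Control replicate 1 and 5 without Control replicate 2.

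Of 14 genes of glucose transport and gluconeogenesis 3 were higher and 7 lower. The first of these counts was 1 with scores of at least 6 and without Control replicate 1 or 2. Slc5a1, the high-affinity glucose carrier of S3, stood at 87.6 and 89.8 CPM in Uox_KO sections, against 58.9 and 62.8 CPM in Control sections (log2 fold change 0.54 ± 0.08, adjusted p = 0.00115). Slc5a1 differed more in the other spots, by a log2 fold change of 0.88, and the difference between spots was -0.33 (adjusted p = 0.0267). Slc5a2, the S1 carrier, stood at 7.16 and 26.3 CPM in Uox_KO sections, against 107 and 113 CPM in Control sections (log2 fold change -2.75 ± 0.40, adjusted p = 0.000838). Pcx, an enzyme of gluconeogenesis, stood at 262 and 366 CPM in Uox_KO sections, against 644 and 688 CPM in Control sections (log2 fold change -1.09 ± 0.15, adjusted p = 0.00058). Slc2a5, the fructose carrier, named after its values were seen, stood at 99.6 and 73.5 CPM in Uox_KO sections, against 82.1 and 85.8 CPM in Control sections and was not called (adjusted p = 0.797). In the other spots its log2 fold change was -1.08 and the difference between spots was 1.13 (adjusted p = 8.52e-06).

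**Figure D3:**
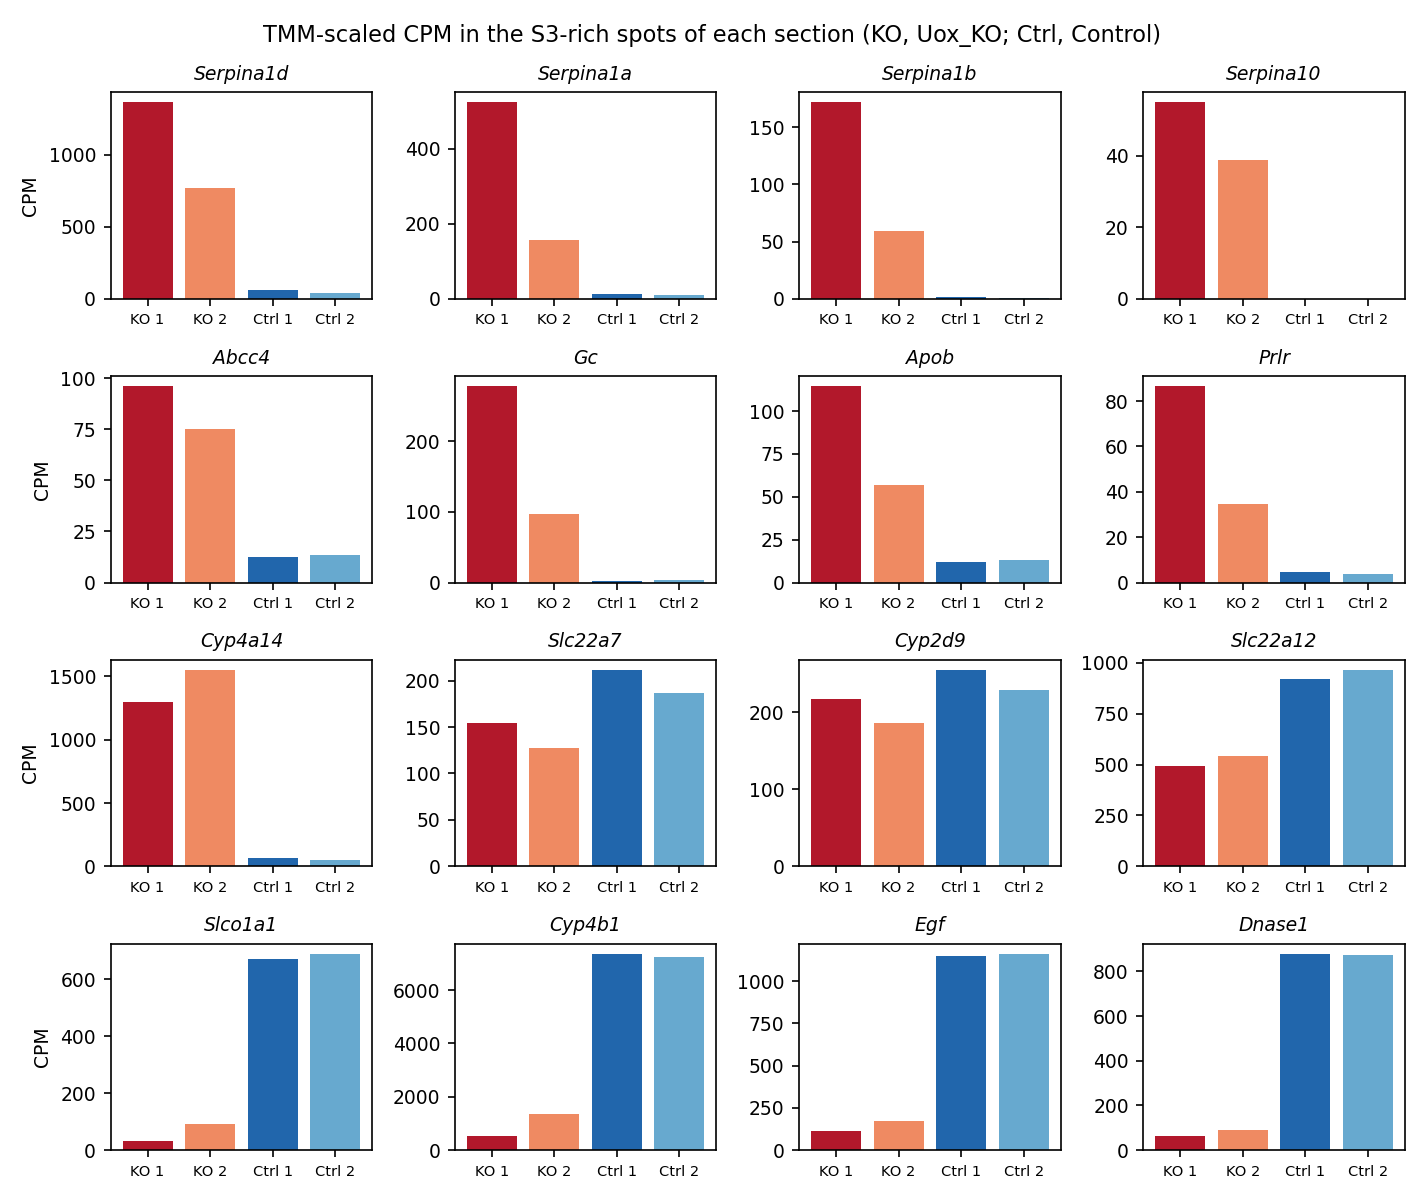
TMM-scaled CPM (y axis, each panel from 0) of 16 genes in the S3-rich spots of each section, 1 bar per section, with the Uox_KO sections left of the Control sections. In every panel except Slc22a7 and Cyp2d9 the 2 genotypes are set far apart, and Uox_KO replicate 1 is above Uox_KO replicate 2 for Serpina1d, Serpina1a, Serpina1b, Gc, Apob and Prlr.

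Genes of glutathione metabolism and targets of NRF2, the transcription factor that answers oxidative and electrophilic stress, were more often higher than lower. Of 23 tested, 14 were higher and 3 lower. The median log2 fold change was 0.51 in S3-rich spots and 0.02 in the other spots. Without Control replicate 1 or 2 a single gene was lower. The genotype difference was more positive in S3-rich than in other spots for 13 genes, against 4.14% of all genes tested. It was more negative for 1, against 1.64% of all genes. The first of these counts was 6 without Control replicate 1 and 8 without Control replicate 2. Gclc, the catalytic subunit of the first enzyme of glutathione synthesis, stood at 255 and 174 CPM in Uox_KO sections, against 95.5 and 92.7 CPM in Control sections (log2 fold change 1.19 ± 0.16, adjusted p = 0.000583). Gclc had a log2 fold change of -0.06 in the other spots, and the difference between spots was 1.24 (adjusted p = 1.92e-05). Nqo1, a quinone reductase, stood at 201 and 139 CPM in Uox_KO sections, against 85.1 and 88.2 CPM in Control sections (log2 fold change 0.98 ± 0.15, adjusted p = 0.00132), against a log2 fold change of 0.08 in the other spots. Srxn1, which repairs oxidised peroxiredoxins, stood at 53.3 and 48 CPM in Uox_KO sections, against 33.4 and 32.1 CPM in Control sections (log2 fold change 0.63 ± 0.09, adjusted p = 0.000888), against 0.03 in the other spots. These 3 genes, named after their values were seen, had both Uox_KO sections above both Control sections in the S3-rich spots. Txnrd1, a thioredoxin reductase, stood at 217 and 214 CPM in Uox_KO sections, against 126 and 124 CPM in Control sections (log2 fold change 0.78 ± 0.08, adjusted p = 0.000138). Hmox1, which opens the haem ring, stood at 36.7 and 40.6 CPM in Uox_KO sections, against 17.8 and 20.4 CPM in Control sections (log2 fold change 1.01 ± 0.11, adjusted p = 0.000194). Gsta2, a glutathione transferase, stood at 491 and 609 CPM in Uox_KO sections, against 184 and 180.0 CPM in Control sections (log2 fold change 1.59 ± 0.11, adjusted p = 2.67e-05). These enzymes were called higher in the Uox_KO sums with all settings tried for them. The metallothionein Mt2, which binds zinc and copper, stood at 194 and 219 CPM in Uox_KO sections, against 39.3 and 36.2 CPM in Control sections (log2 fold change 2.45 ± 0.10, adjusted p = 2.55e-06), with a log2 fold change of 2.63 in the other spots. Gsta1, named after its values were seen, had 154 UMIs in Uox_KO and 3 in Control, a ratio of 68.9 with a 95% counting interval of 23.1 to 338. Gsta1 and Gsta2 are close paralogs, and reads could be split between them.

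The antioxidant response element that NRF2 binds has a core spelled TGANTCAGC here, with GCTGANTCA as its reverse complement, and the windows of the listed genes that hold it are shown, with the core in capitals (RefSeq, GRCm38.p6, 250 bases before to 50 after the start). The windows lie at chr2:152105274-152105573 on the plus strand for Srxn1, chr19:4037863-4038162 on the minus strand for Gstp1 and chr8:94172368-94172667 on the plus strand for Mt2.
Srxn1: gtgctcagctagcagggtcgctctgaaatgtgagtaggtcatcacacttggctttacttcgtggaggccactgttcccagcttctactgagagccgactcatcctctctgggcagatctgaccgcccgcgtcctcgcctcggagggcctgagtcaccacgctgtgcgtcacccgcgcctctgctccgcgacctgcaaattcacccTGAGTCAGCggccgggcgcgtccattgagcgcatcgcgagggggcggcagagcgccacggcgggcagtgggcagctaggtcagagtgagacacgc
Gstp1: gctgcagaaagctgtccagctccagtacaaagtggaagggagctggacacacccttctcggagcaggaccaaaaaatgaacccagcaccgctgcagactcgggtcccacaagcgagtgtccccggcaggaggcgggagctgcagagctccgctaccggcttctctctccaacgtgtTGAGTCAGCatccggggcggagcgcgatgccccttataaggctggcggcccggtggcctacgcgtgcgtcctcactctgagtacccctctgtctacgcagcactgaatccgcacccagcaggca
Mt2: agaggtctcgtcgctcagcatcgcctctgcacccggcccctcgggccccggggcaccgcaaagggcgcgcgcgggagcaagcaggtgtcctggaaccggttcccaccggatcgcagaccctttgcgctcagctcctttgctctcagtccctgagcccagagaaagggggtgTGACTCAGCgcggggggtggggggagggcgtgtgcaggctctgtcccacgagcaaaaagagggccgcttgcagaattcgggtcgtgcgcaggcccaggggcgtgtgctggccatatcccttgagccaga
The core starts at -45, -74 and -79 from the start of Srxn1, Gstp1 and Mt2, and 390 of all 32851 windows (1.19%) hold it on either strand. Of the 23 tested genes of the list, 19 had a window, 3 held the core, and 2 of these were higher in Uox_KO. Gstp1, named after its values were seen, stood at 27.4 and 25.1 CPM in Uox_KO sections, against 22.9 and 14.4 CPM in Control sections and was not called (adjusted p = 0.063). Nqo1 has no match in its window, which says only that these letters are not within it. A match is a sequence feature and not a measured binding site.

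**Figure D4:**
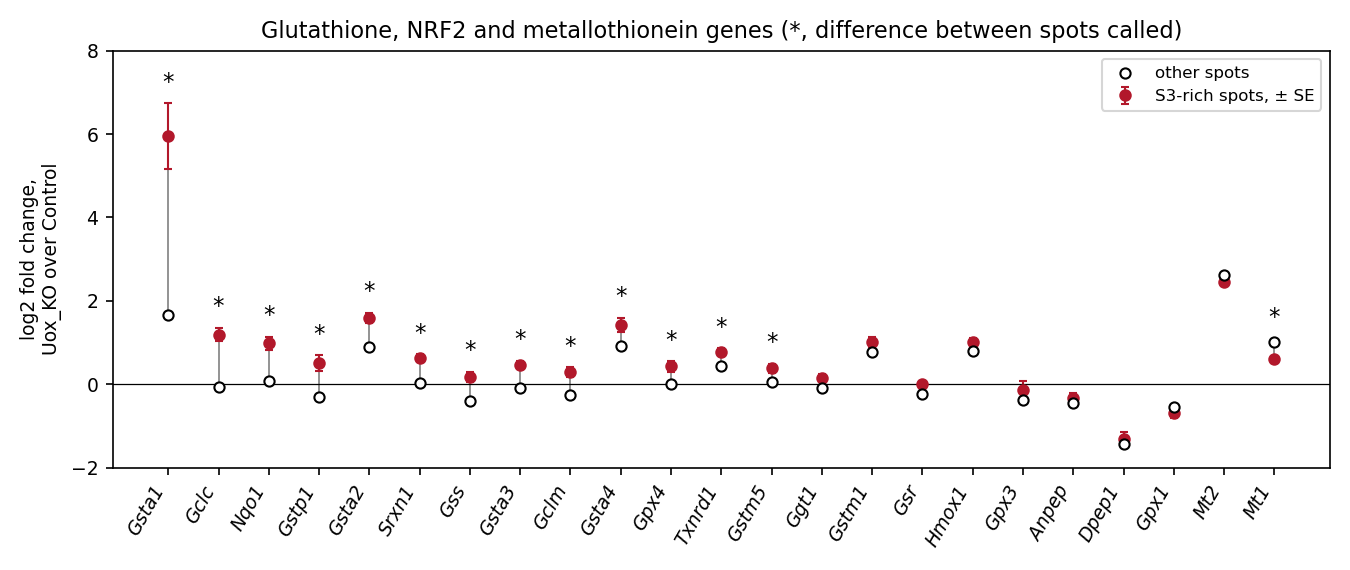
Log2 fold change of Uox_KO over Control (y axis) for each tested gene of the glutathione, NRF2 and metallothionein list in S3-rich spots, with bars of 1 standard error, and in the other spots. A star marks the genes whose difference between spots was called, among them Gclc at 1.19 in S3-rich and -0.06 in other spots.

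Genes known to differ between the sexes in the mouse proximal tubule also moved, and all mice of both genotypes were male. Of 13 male-biased genes tested 12 were lower in Uox_KO. The median log2 fold change was -1.10 in S3-rich spots and -1.59 in the other spots. Cyp4b1, a cytochrome P450 of the proximal tubule, stood at 540.4 and 1355 CPM in Uox_KO sections, against 7371 and 7226 CPM in Control sections (log2 fold change -2.95 ± 0.36, adjusted p = 0.000365). Odc1, which makes the polyamine putrescine, stood at 156 and 282 CPM in Uox_KO sections, against 1457 and 1456 CPM in Control sections (log2 fold change -2.74 ± 0.24, adjusted p = 6.73e-05). Cyp4a12a, an omega-hydroxylase of fatty acids, stood at 1.58 and 14.3 CPM in Uox_KO sections, against 72.7 and 69.3 CPM in Control sections (log2 fold change -3.24 ± 0.51, adjusted p = 0.00127). Cyp2d9 was the male-biased gene that was not called, at 217 and 185 CPM in Uox_KO sections, against 255 and 228 CPM in Control sections (log2 fold change -0.26 ± 0.10, adjusted p = 0.0701). In the other spots its log2 fold change was -2.46 and the difference between spots was 2.22 (adjusted p = 1.23e-08). Acsm3, a male-biased acyl-CoA synthetase named after its values were seen, had log2 fold changes of -0.56 in S3-rich spots (adjusted p = 0.00939) and -2.06 in the other spots, and the first call was lost without Control replicate 1 or 2.

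Of 5 female-biased genes 4 were higher, and Slc22a7 was lower. Cyp4a14, an omega-hydroxylase of fatty acids, stood at 1297 and 1553 CPM in Uox_KO sections, against 63.8 and 50.7 CPM in Control sections (log2 fold change 4.64 ± 0.15, adjusted p = 1.13e-06), with a log2 fold change of 5.78 in the other spots. Prlr, the prolactin receptor, stood at 86.7 and 34.7 CPM in Uox_KO sections, against 4.52 and 3.6 CPM in Control sections (log2 fold change 3.92 ± 0.44, adjusted p = 0.000245). Abcc3, an exporter of bile salts and conjugates, stood at 26 and 10.4 CPM in Uox_KO sections, against 0.554 and 0.24 CPM in Control sections (log2 fold change 5.54 ± 0.63, adjusted p = 0.000254). In Prlr, Abcc3 and Slc7a12 Uox_KO replicate 1 was well above Uox_KO replicate 2, and both were above both Control sections. With scores of at least 6 the log2 fold change of Prlr was 2.06 (adjusted p = 0.000132).

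Of 36 nuclear genes of the respiratory chain 21 were lower. Their median log2 fold change was -0.34, against -0.55 in the other spots. Without Control replicate 1, 7 were lower, without Control replicate 2, 8 were lower, and without TMM 10 were lower and 3 higher. Cycs, which encodes cytochrome c, stood at 298 and 397 CPM in Uox_KO sections, against 792 and 815 CPM in Control sections (log2 fold change -1.21 ± 0.13, adjusted p = 0.000218). Among 32 genes of fatty acid oxidation and peroxisomes 10 were higher and 13 lower, with 7 lower without Control replicate 1 or 2. Cyp4a10, a paralog of Cyp4a14, stood at 1094 and 1117 CPM in Uox_KO sections, against 411 and 374 CPM in Control sections (log2 fold change 1.49 ± 0.09, adjusted p = 1.32e-05). Pdk4, a kinase that holds back pyruvate oxidation, stood at 54.8 and 72.1 CPM in Uox_KO sections, against 11.4 and 11.3 CPM in Control sections (log2 fold change 2.48 ± 0.15, adjusted p = 1.04e-05). Crot, one of the genes that lead the S3-rich spots, stood at 628 and 542 CPM in Uox_KO sections, against 445 and 437 CPM in Control sections (log2 fold change 0.41 ± 0.10, adjusted p = 0.00969), and with scores of at least 6 its log2 fold change was -0.02 (adjusted p = 0.922). In the kynurenine and NAD list, to which the score gene Aadat is related, 9 of 13 were lower and 1 higher, and 5 were lower without Control replicate 1 or 2 or without TMM. Kmo, kynurenine monooxygenase, stood at 25.6 and 32.1 CPM in Uox_KO sections, against 109 and 103 CPM in Control sections (log2 fold change -1.88 ± 0.12, adjusted p = 1.32e-05). Afmid, kynurenine formamidase, stood at 12.6 and 20.7 CPM in Uox_KO sections, against 75.8 and 85.4 CPM in Control sections (log2 fold change -2.29 ± 0.19, adjusted p = 4.76e-05). Nnmt, which methylates nicotinamide, was the member that was higher, at 6.42 and 5.31 CPM in Uox_KO sections, against 0.831 and 0.559 CPM in Control sections (log2 fold change 3.08 ± 0.33, adjusted p = 0.000189).

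Of all genes tested 24.6% were higher and 21.9% lower, together 46.5%. Of 11 tested genes of receptor-mediated endocytosis 4 were lower, 1 was higher and 6 were not called, a number called near that share. Their median log2 fold change was 0.03. Without Control replicate 2, 2 were lower, and without TMM 5 were higher. Lrp2, which encodes megalin, stood at 513 and 658 CPM in Uox_KO sections, against 1169 and 1146 CPM in Control sections (log2 fold change -0.98 ± 0.12, adjusted p = 0.000419). Dab2, its adaptor, stood at 128 and 160.0 CPM in Uox_KO sections, against 261 and 259 CPM in Control sections (log2 fold change -0.85 ± 0.11, adjusted p = 0.000506). Among 14 transcription factors of the proximal tubule 6 were lower and 3 higher, and without Control replicate 2, 1 was higher. Nr1h4, the bile acid receptor, stood at 32.3 and 46.1 CPM in Uox_KO sections, against 96 and 98.8 CPM in Control sections (log2 fold change -1.32 ± 0.15, adjusted p = 0.000227). Bcl6, a repressor that takes part in male-biased expression in mouse liver, stood at 25.5 and 29.5 CPM in Uox_KO sections, against 7.39 and 9.91 CPM in Control sections (log2 fold change 1.65 ± 0.16, adjusted p = 0.000102).

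Injury genes of the tubule were higher almost throughout. Of 25 tested 24 were higher. The median log2 fold change was 2.83, which was the same with the 1 member at 0 UMIs in Control held at its bound. In the other spots the median was about the same, at 2.85. Havcr1, the kidney injury molecule of the proximal tubule, stood at 45.9 and 42.3 CPM in Uox_KO sections, against 0.554 and 0.639 CPM in Control sections (log2 fold change 6.17 ± 0.17, adjusted p = 8.67e-07). It was detected in 46.0% and 44.0% of S3-rich spots in the Uox_KO sections, against 1.98% and 2.08% in the Control sections. Havcr1 was detected in the other spots in 34.0% and 33.5% in the Uox_KO sections, against 0.879% and 0.727% in the Control sections. The other spots were shallower, with a median of 15078 and 18645 UMIs in the Uox_KO sections, against 36266 and 31153 UMIs in the Control sections. The log2 fold change of Havcr1 in the other spots was 8.47, and the difference, S3-rich minus other spots, was -2.25 (adjusted p = 0.0238), a call lost without Control replicate 1 or 2. Lcn2, the iron-binding protein lipocalin, stood at 87.9 and 73.4 CPM in Uox_KO sections, against 0.277 and 0.32 CPM in Control sections (log2 fold change 8.02 ± 0.21, adjusted p = 8.67e-07). Spp1, which encodes osteopontin, stood at 5921 and 5077 CPM in Uox_KO sections, against 263 and 267 CPM in Control sections (log2 fold change 4.38 ± 0.13, adjusted p = 8.67e-07). Timp1, an inhibitor of metalloproteinases, stood at 67.8 and 61 CPM in Uox_KO sections, against 0.0923 and 0.559 CPM in Control sections (log2 fold change 7.51 ± 0.26, adjusted p = 1.27e-06). For these 4 genes the Uox_KO sections were close to each other and far above both Control sections. Gdf15 and Cdkn1a, targets of p53, were higher as well. Gdf15 stood at 47.6 and 39.3 CPM in Uox_KO sections, against 4.99 and 5.03 CPM in Control sections (log2 fold change 3.12 ± 0.14, adjusted p = 3.73e-06). Cdkn1a stood at 22.5 and 22.3 CPM in Uox_KO sections, against 3.05 and 2.8 CPM in Control sections (log2 fold change 2.94 ± 0.15, adjusted p = 6e-06). Of 11 p53 targets 9 were higher. Of 18 cell cycle genes 15 were higher, among them Mki67 at 5.79 and 9.49 CPM in Uox_KO sections, against 0.646 and 0.479 CPM in Control sections (log2 fold change 3.73 ± 0.40, adjusted p = 0.000189). With scores of at least 6 alone 4 of 9 tested were higher.

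Genes with the largest rises outside these lists included a matrix protein, an aminotransferase and a ubiquitin-like protein. Ltbp2, a latent TGF-beta binding protein, had 1024 UMIs in Uox_KO and 2 in Control, a ratio of 687 with a 95% counting interval of 190 to 5681. Bcat1, the cytosolic aminotransferase of branched-chain amino acids, had 1176 UMIs in Uox_KO and 3 in Control, a ratio of 526 with an interval of 180 to 2554. Ubd, a ubiquitin-like modifier induced by interferon, stood at 63.3 and 47.6 CPM in Uox_KO sections, against 0.0923 and 0.24 CPM in Control sections (log2 fold change 8.24 ± 0.31, adjusted p = 1.74e-06). Smoc2, a matricellular protein, stood at 195 and 74.9 CPM in Uox_KO sections, against 0.739 and 0.959 CPM in Control sections (log2 fold change 7.29 ± 0.59, adjusted p = 4.64e-05). Gc, the vitamin D binding protein, stood at 278 and 96.7 CPM in Uox_KO sections, against 2.4 and 3.2 CPM in Control sections (log2 fold change 6.05 ± 0.55, adjusted p = 8.19e-05). Its log2 fold change was 2.87 in the other spots, with a difference between spots of 3.09 (adjusted p = 2.39e-05). Apob, the apolipoprotein of very low density lipoprotein, stood at 115 and 57.2 CPM in Uox_KO sections, against 12.1 and 13.4 CPM in Control sections (log2 fold change 2.76 ± 0.30, adjusted p = 0.000197). Its log2 fold change was -0.34 in the other spots, with a difference between spots of 3.07 (adjusted p = 1.19e-08). Gc and Apob, like the alpha-1-antitrypsin copies, are best known from liver, and in each of them Uox_KO replicate 1 was the highest section.

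The largest falls took in genes of several tubule segments and of blood. Dnase1, a secreted nuclease, stood at 63.7 and 92.4 CPM in Uox_KO sections, against 880.1 and 872 CPM in Control sections (log2 fold change -3.49 ± 0.17, adjusted p = 4.54e-06). Egf, the growth factor of the thick ascending limb and distal tubule, stood at 112 and 173 CPM in Uox_KO sections, against 1149 and 1163 CPM in Control sections (log2 fold change -3.02 ± 0.19, adjusted p = 1.3e-05). Wfdc15b, a WAP domain protein, stood at 39.3 and 38.2 CPM in Uox_KO sections, against 397 and 459.5 CPM in Control sections (log2 fold change -3.47 ± 0.11, adjusted p = 9.92e-07). The haemoglobin gene Hbb-bs, a sign of red cells in the section, stood at 50.7 and 151 CPM in Uox_KO sections, against 1819 and 1812 CPM in Control sections (log2 fold change -4.17 ± 0.43, adjusted p = 0.000152), and all 5 red cell genes were lower. The thick ascending limb genes were lower in 8 of 9 cases, among them Umod at 1489.9 and 1511 CPM in Uox_KO sections, against 3367 and 3661 CPM in Control sections (log2 fold change -1.23 ± 0.10, adjusted p = 4.53e-05). S1 and S2 genes were lower in 11 of 13. Their median log2 fold change was -1.24 in S3-rich spots and -1.37 in the other spots.

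Markers of other cells moved with the genotype inside the S3-rich spots. The 14 fibroblast and matrix genes, all called higher, summed to 4265 and 2990 CPM in the Uox_KO sections, against 362 and 319 CPM in the Control sections, and none was at 0 in any section. Col1a1, the collagen chain, stood at 231 and 193 CPM in Uox_KO sections, against 4.16 and 2.64 CPM in Control sections (log2 fold change 5.98 ± 0.18, adjusted p = 9.92e-07). The 14 macrophage and other myeloid genes, also all higher, summed to 1159 and 702 CPM in the Uox_KO sections, against 102 and 97.7 CPM in the Control sections, with none at 0. C1qb, a complement chain made by macrophages, stood at 195 and 146 CPM in Uox_KO sections, against 16.7 and 16.5 CPM in Control sections (log2 fold change 3.36 ± 0.15, adjusted p = 3.73e-06). T and NK cell genes summed to 45.8 and 42.6 CPM in the Uox_KO sections, against 7.73 and 5.41 CPM in the Control sections. Cd3e was at 0 in Control replicate 1, and 10 of 10 were higher. That count was 6 without Control replicate 2 and 1 of 1 tested with scores of at least 6. Adipocyte genes summed to 43.5 and 136 CPM in the Uox_KO sections, against 1.04 and 2.30 CPM in the Control sections. Lep was at 0 in all 4 sections, and 5 of 5 tested were higher. Urothelium genes summed to 49.7 and 35.2 CPM in the Uox_KO sections, against 1.22 and 0.741 CPM in the Control sections. Upk3a, Upk3b and Krt5 were at 0 in both Control sections, Krt13 was at 0 in all 4 sections, and all 7 genes tested were higher. At these Control levels an adipocyte or urothelium gene could hardly pass the expression filter except through the Uox_KO sums. The counts of higher genes in both lists were thus largely set by that filter and are a description only. At least 1 fat or urothelium UMI fell in 51 and 72 S3-rich spots of the Uox_KO sections, against 3 and 3 of the Control sections. The fibroblast and myeloid levels in these spots were below those of the other spots, with ratios of 0.814 and 0.718 for fibroblast genes in the Uox_KO sections, against 0.693 and 0.664 in the Control sections. The part of these cells in the genotype differences of the S3-rich spots was not tested. With the spots holding fat or urothelium UMIs left out, 2954 genes were higher and 2664 lower.

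Immune response genes were higher almost throughout. Of 24 interferon and antigen presentation genes 23 were higher. The median log2 fold change was 1.43 in S3-rich spots and 1.78 in the other spots. Over all genes tested, the genotype difference was more negative in S3-rich spots for 1.64%. For 5 genes the genotype difference was more negative in S3-rich spots (1 without Control replicate 1 or 2). Cd74, the chain that guides class II molecules, stood at 737 and 649 CPM in Uox_KO sections, against 120.1 and 122 CPM in Control sections (log2 fold change 2.52 ± 0.10, adjusted p = 2.26e-06). H2-K1, a class I molecule, stood at 509.8 and 480.4 CPM in Uox_KO sections, against 192 and 190.4 CPM in Control sections (log2 fold change 1.37 ± 0.08, adjusted p = 1.29e-05). Of 17 complement and chemokine genes 16 were higher and 1 lower. C3, the central complement component, stood at 191 and 205 CPM in Uox_KO sections, against 7.2 and 8.55 CPM in Control sections (log2 fold change 4.65 ± 0.12, adjusted p = 8.67e-07). Cxcl16 stood at 91.3 and 94.8 CPM in Uox_KO sections, against 26.1 and 24.8 CPM in Control sections (log2 fold change 1.87 ± 0.09, adjusted p = 4.54e-06). Ccl2, which draws monocytes, had 312 UMIs in Uox_KO and 2 in Control, a ratio of 209 with a 95% counting interval of 57.5 to 1736. Il1b stood at 3.48 and 2.66 CPM in Uox_KO sections, against 0.369 and 0.479 CPM in Control sections (log2 fold change 2.82 ± 0.40, adjusted p = 0.000736). Of 12 genes of cell death and the inflammasome 9 were higher, or 4 without Control replicate 1 and 2 with scores of at least 6. The nuclear RNAs Malat1 and Neat1, which can mark RNA quality, went opposite ways. Malat1 was higher, at 169 and 203 CPM in Uox_KO sections, against 100.4 and 78.7 CPM in Control sections (log2 fold change 1.05 ± 0.14, adjusted p = 0.00046). Neat1 was lower, at 258 and 276 CPM in Uox_KO sections, against 318 and 378 CPM in Control sections (log2 fold change -0.38 ± 0.10, adjusted p = 0.0169), a call lost without Control replicate 2 (adjusted p = 0.228) and without TMM (adjusted p = 0.167). Their part in these results was not tested.

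**Figure D5:**
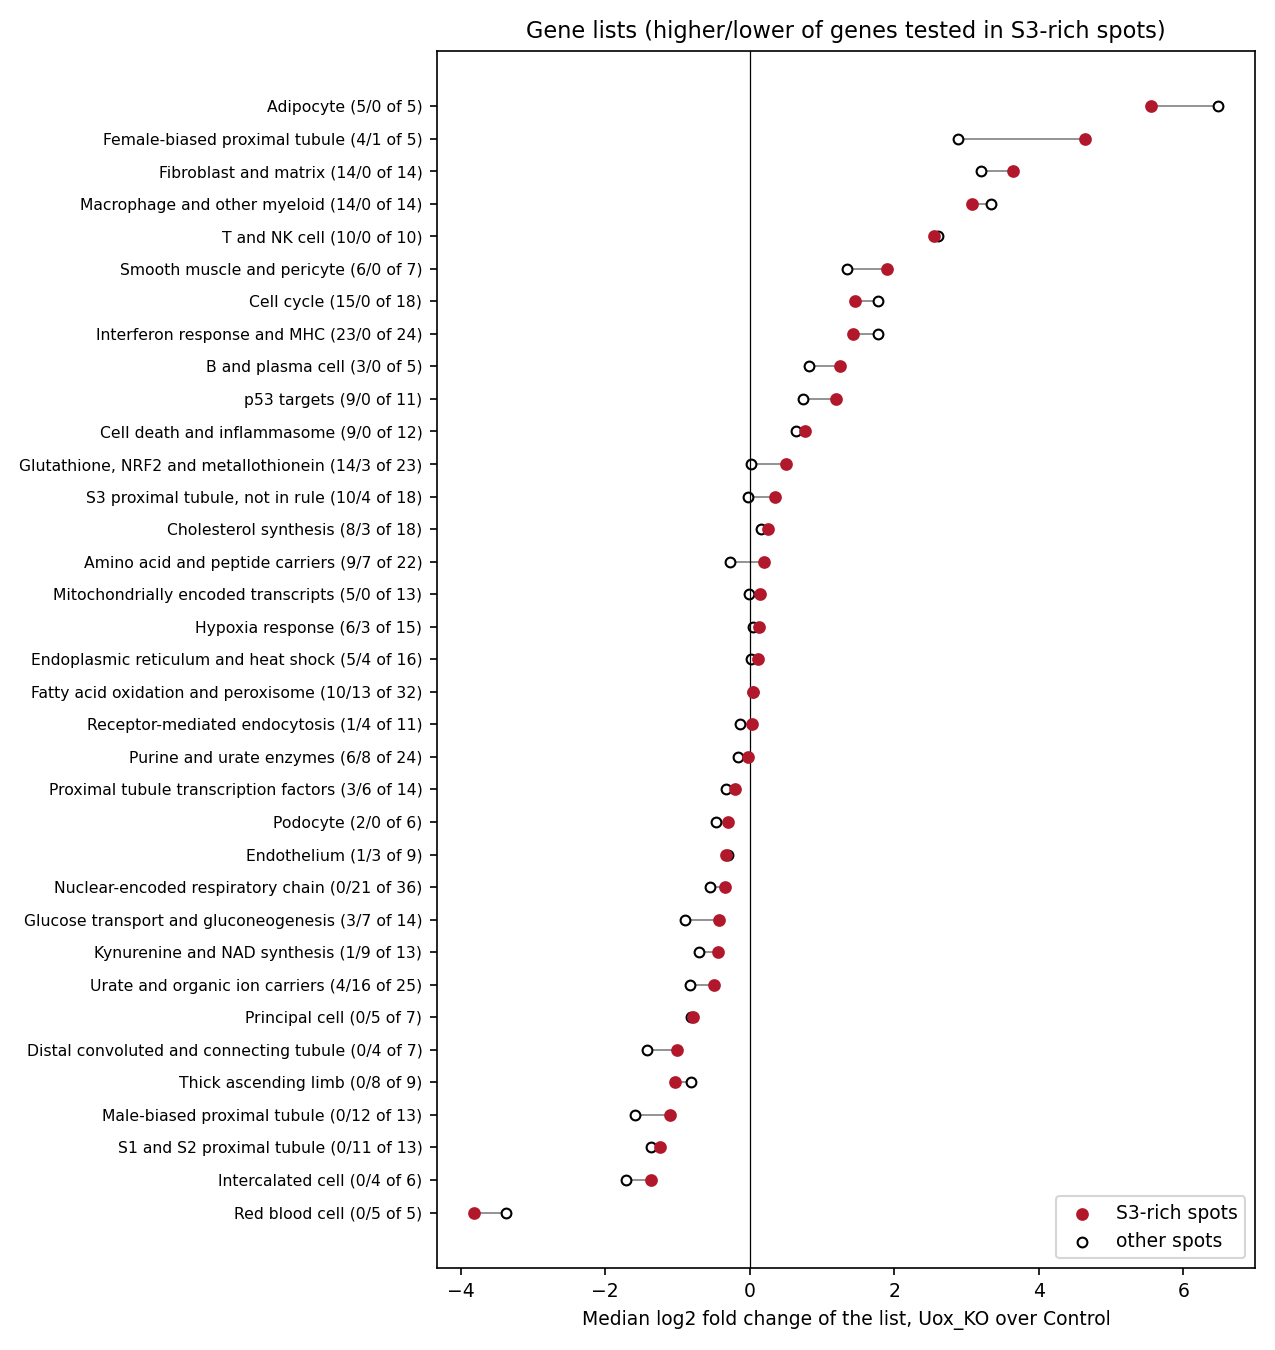
Median log2 fold change of Uox_KO over Control (x axis) of 35 gene lists in S3-rich spots and in the other spots, with the numbers higher and lower of the genes tested in S3-rich spots beside each name. Adipocyte genes lie at the top, at 5.55 in S3-rich spots, and red blood cell genes at the bottom, at -3.81, while the fibroblast and myeloid lists lie at 3.64 and 3.07; 5 lists with a gene at 0 UMIs in 1 genotype are not drawn.

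Fasn, Scd1 and Agpat2, genes of lipid synthesis, had smaller genotype differences in S3-rich than in other spots. Fasn, fatty acid synthase, stood at 94.7 and 126 CPM in Uox_KO sections, against 57.9 and 71 CPM in Control sections in S3-rich spots (log2 fold change 0.77 ± 0.15, adjusted p = 0.00347), a call lost without Control replicate 1 (adjusted p = 0.058). Fasn had a log2 fold change of 4.04 in the other spots and the difference between spots was -3.23 (adjusted p = 6.82e-10). Scd1, stearoyl-CoA desaturase, stood at 1331 and 664 CPM in Uox_KO sections, against 98.1 and 84.6 CPM in Control sections (log2 fold change 3.45 ± 0.29, adjusted p = 5.78e-05), with 5.94 in the other spots (difference -2.66, adjusted p = 0.000234). Agpat2, an acyltransferase of phospholipid and triglyceride synthesis, stood at 47.4 and 53.1 CPM in Uox_KO sections, against 44 and 44.6 CPM in Control sections and was not called (adjusted p = 0.145), against a log2 fold change of 2.22 in the other spots. Fabp4, the fatty acid binding protein of adipocytes and small vessels, had log2 fold changes of 0.88 in S3-rich spots (adjusted p = 0.0313) and 3.96 in the other spots. The summed adipocyte genes of the other spots reached 1235 and 2197 CPM in the Uox_KO sections, against 2.26 and 18.2 CPM in the Control sections. Their part in these differences was not tested. Cholesterol synthesis genes were higher in 8 of 18 cases and lower in 3, with 5 higher with scores of at least 6 and 1 lower without Control replicate 1. Sqle, squalene epoxidase, stood at 152 and 119.9 CPM in Uox_KO sections, against 45.6 and 39.7 CPM in Control sections (log2 fold change 1.68 ± 0.13, adjusted p = 3.88e-05).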

How the data were processed

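Spatial transcriptomes of kidney sections were measured with 10x Visium in 2 Uox_KO and 2 Control mice. The authors deposited unnormalized counts of UMIs for each gene in each spot. Per the submitters' processing notes, the tool was Space Ranger 1.3.1 and the build mm10; the annotation, the spot filter and the sequencing depth in reads are not given in the sources used here, and all deposited spots were taken as lying over tissue. Counts of 32285 genes were summed per section over the S3-rich spots, chosen by the score described above with ties going to the spot with more UMIs, and over the other spots. No doublet caller was run, since spots are regions.

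Uox_KO was compared with Control with edgeR 4.0.16 (R 4.3.3): filterByExpr, TMM factors (1.09 and 1.05 for Uox_KO, 0.940 and 0.928 for Control), glmQLFit and glmQLFTest, with genes adjusted together by Benjamini-Hochberg at 0.05. The spot-by-genotype term used 8 sums with the section as a block. The standard error is the fold change divided by the square root of F. For genes with few UMIs in a genotype it can be below the counting error. Each section is from its own mouse by its title; spots were not used as replicates. DESeq2 1.42.0, other choices of spots, filters and scalings, and leaving out each section were the alternatives. Procedures were tested on simulated data. The simulation gave both genotypes the same spread, changed few genes and left out the choice of spots, so it does not cover those features of the data. Same-numbered mice did not deviate together (r = 0.0337), so the numbers do not pair them.

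The spots and all gene lists were chosen with earlier results of these data known. Named genes are the score genes; the S3 list; the 12 leading ratios above 50 CPM; the 12 largest rises and falls above 20 CPM without overlap of sections; up to 4 genes per list with the smallest p; and the 8 largest differences between spots in each direction. Predicted genes were not named, and 20 further genes were chosen after their values were seen. Named genes numbered 203 by these rules, not all of which are reported here. Promoter windows are from RefSeq (GRCm38.p6). Python 3.11.15 with numpy 2.4.6, pandas 2.3.3 and matplotlib 3.10.9 made the sums and figures. The replicates number 2 per genotype, so an exact permutation test over sections could not reach a small p and none was used.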

Additional observations from a re-analysis of the deposited data

Results flagged for a closer look

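The genotype effect in S3-rich spots was set against that in the other spots of the same sections, and 16 genes are given here, the 8 furthest in each direction of those averaging 20 CPM or more in S3-rich spots. For each of them the difference itself passed the quasi-likelihood test of edgeR, adjusted by Benjamini-Hochberg. The score that chose the spots also made this contrast, and the contrast was wider in the Uox_KO sections. The part of that choice in these differences was not tested. Values are differences in log2 fold change, S3-rich minus other spots.

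More positive in S3-rich spots were Gc at 3.09, Apob at 3.07, Prlr at 2.28, Cyp2d9 at 2.22, Mettl7a2 at 2.15, Abcc4 at 1.81, Cryab, a small heat shock protein, at 1.69 and Cyp2d26 at 1.63. Apob and Cyp2d9 differed in kind: Apob had log2 fold changes of 2.76 in S3-rich and -0.34 in other spots, and Cyp2d9 had -0.26 in S3-rich and -2.46 in other spots. With scores of at least 6 alone the difference was 0.16 for Prlr (adjusted p = 0.901) and -0.20 for Mettl7a2 (adjusted p = 0.778), so those calls were lost, and that of Cryab was lost with the top 20% of spots (adjusted p = 0.073).

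More negative in S3-rich spots were Fasn at -3.23, Fabp4 at -3.12, Scd1 at -2.66, Cck at -2.54, Havcr1 at -2.25, Cfd at -2.24, Ugt2b37 at -2.11 and Agpat2 at -2.02. Havcr1 nevertheless rose in S3-rich spots, by a log2 fold change of 6.17, against 8.47 in the other spots. The call of Havcr1 was lost in 8 alternatives and that of Cfd in 7, among them the one without spots holding fat or urothelium UMIs (adjusted p = 0.677 for Cfd). The difference of Cfd was 5.83 with scores of at least 6 (adjusted p = 0.82). The call of Cck was lost with the top 20% of spots (adjusted p = 0.145) and with a thinned score, where the difference was -1.22 (adjusted p = 0.0697). Gc, Apob, Cyp2d9, Abcc4, Cyp2d26, Fasn, Fabp4, Scd1, Ugt2b37 and Agpat2 kept the call in all alternatives run for them.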

How the results depend on the processing

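With 2 sections per genotype the calls rest on a spread estimated from few values. Leaving out 1 section at a time gave 1884 to 3547 genes higher in Uox_KO (3217 with all), 1372 to 3311 lower (2855), 179 to 887 more positive in S3-rich than other spots (642) and 79 to 681 more negative (254). With scores of at least 6, 1232 were higher and 1123 lower; DESeq2 called 1841 lower, and 1668 were lower without TMM. The more positive count was 313 with the top 20% of spots, 1187 with 1 score threshold, 1171 without Serpina1f and Cyp7b1 and 333 without Slc7a13 in the score. The more negative count was 159 with the top 20%, 482 with 1 threshold and 164 with thinned sums. Genes at least 2-fold higher in S3-rich spots numbered 22 with a thinned score, 24 without Slc7a13 and 63 with scores of at least 6, against 37. The cause of these moves was not tested. With scores of at least 6, Slc2a1 (log2 fold change -0.15, adjusted p = 0.731) and Crot (-0.021, adjusted p = 0.922) turned negative. With the replicate number as a block, a pairing that the labels do not give, 3317 genes were higher and 2949 lower. Most named genes were chosen by their p or their difference in the main fit, so the counts that follow do not stand for all genes. Of 219 to 223 named genes with a value, 191 to 218 kept their direction and side of the threshold in each alternative, apart from scores of at least 6, with 178 of 203.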
